A study of Mus musculus with 4 samples.

Results

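Deltamethrin, a pyrethroid insecticide that keeps voltage-gated sodium channels open, was given to Neuro-2a cells, a neuroblastoma line from an albino strain A mouse. The genes described here encode the enzymes and transporters that carry glucose to pyruvate and lactate, bring pyruvate into the mitochondrion and burn it in the tricarboxylic acid (TCA) cycle. They were 47 genes chosen by symbol for their place in these pathways, of which 43 had a probe set among the 22206 of the table. By segment these were 21 of 24 genes of glycolysis and lactate handling, 9 of 10 of pyruvate entry and 13 of 13 of the TCA cycle. Eno1, Gpi1, Pfkfb2 and Mpc2 were not analysed here. Semi-confluent cultures of the single line received 30 µM deltamethrin for 24 h, and the controls received the vehicle, 0.1% DMSO, for the same time. Each group was read on 2 Affymetrix Clariom S Mouse arrays, and the comparison asks how exposure to the insecticide alters transcript levels. Nothing in the labels says whether the arrays of a group came from separate cultures, so p-values reflect only how far these arrays differ, and that spread may be technical.

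Glycolysis splits glucose into pyruvate in the cytosol with a small yield of ATP, and lactate dehydrogenase returns the NAD+ it consumes. The pyruvate dehydrogenase complex, which is switched off by its kinases and on by its phosphatases, converts pyruvate to acetyl-CoA, and the TCA cycle oxidises that acetyl-CoA to feed the respiratory chain. Proliferating tumour lines such as neuroblastoma typically run a high glycolytic flux and export lactate, and many glycolytic genes are targets of the hypoxia-inducible factor HIF and of MYC.

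The deposited values are log2 signals, so a difference of 1 is 2-fold. The arrays were close to each other, with medians between 5.61 and 5.63, and the difference of a pair of arrays had a standard deviation of 0.33 to 0.37 within groups and 0.40 to 0.45 between groups. Markers of the labelled cell type were compared with those of other types. All 13 measured of 16 listed neuroblastoma and sympathoadrenal markers had means above the median of all probe sets (5.60), with values from 5.94 to 16.74. All 7 astrocyte and all 6 fibroblast markers lay at or below that median, as did 5 of 6 macrophage markers. The other macrophage marker reached 6.14, so a mean above the median does not by itself show the cell type. In such bulk RNA, fewer cells of a type and less RNA per cell cannot be told apart. The table gives no detection call, so a dim value cannot be said to be above background.

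None of the 43 measured members passed the test over all probe sets, and 42 of them had estimates between -0.62 and 0.63 on the log2 scale. Eno2, which encodes the neuronal enolase, was 3-fold higher with deltamethrin and just missed the threshold (adjusted p = 0.0532). The lowest were the lactate exporter Slc16a3, the triosephosphate isomerase Tpi1 and the neuronal glucose transporter Slc2a3, each about 1.5-fold lower and none past the threshold. The estimates of the TCA cycle genes filled a narrow band around 0, with the oxoglutarate dehydrogenase gene Ogdh the lowest at -0.44.

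In limma with an adjusted p below 0.05, 0 of 43 members were called, where 0.432% of all probe sets were. With a variance trend, which lets the expected spread depend on the level, 3 members were called (Eno2 higher, Tpi1 and Slc16a3 lower), against 3.63% of all probe sets. Of the 11103 probe sets above the median level, where most members lay, 486 were called higher and 298 lower with the trend. At an unadjusted p below 0.05 there were 4 lower members (Slc16a3, Tpi1, Slc2a3 and Ogdh) where 6.84% of all probe sets were lower, and 1 higher member (Eno2) where 6.83% were higher. Of the 11103 above the median level, 924 were lower and 1128 higher at that p. Both deltamethrin arrays lay below both vehicle arrays for 18 of 43 members (41.9%), compared with 23.5% of all probe sets and 26.5% of those above the median level. Both lay above for 5 members (11.6%), compared with 20.3% of all probe sets and 26.4% of those above the median level. The groups overlapped for the other 20. Of the 43, 39 had a mean above the median level; the exceptions were Ldhb, Pdk2, Pdk3 and Pdk4. Of the neuroblastoma markers, 0 of 13 were called in limma and 12 had lower estimates. Estimates were lower for 52.9% of all probe sets and 50.3% of those above the median level. With a variance trend 3 of the 13 were called, all lower: Isl1 (-1.14), Ret (-0.66) and Chgb (-0.535). So were 298 of the 11103 probe sets above the median level. Both deltamethrin arrays lay below both vehicle arrays for 9 markers (69.2%), against 26.5% of probe sets above the median level. They lay above for 1, Th, at 0.90 ± 0.27 (adjusted p = 0.242), against 26.4% of those probe sets. The groups overlapped for the other 3 markers. The median estimate of the markers was -0.27, and their mean level was 12.02 and 12.06 on the vehicle arrays and 11.72 and 11.61 on the deltamethrin arrays. Their part in these values was not tested.

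**Figure D1:**
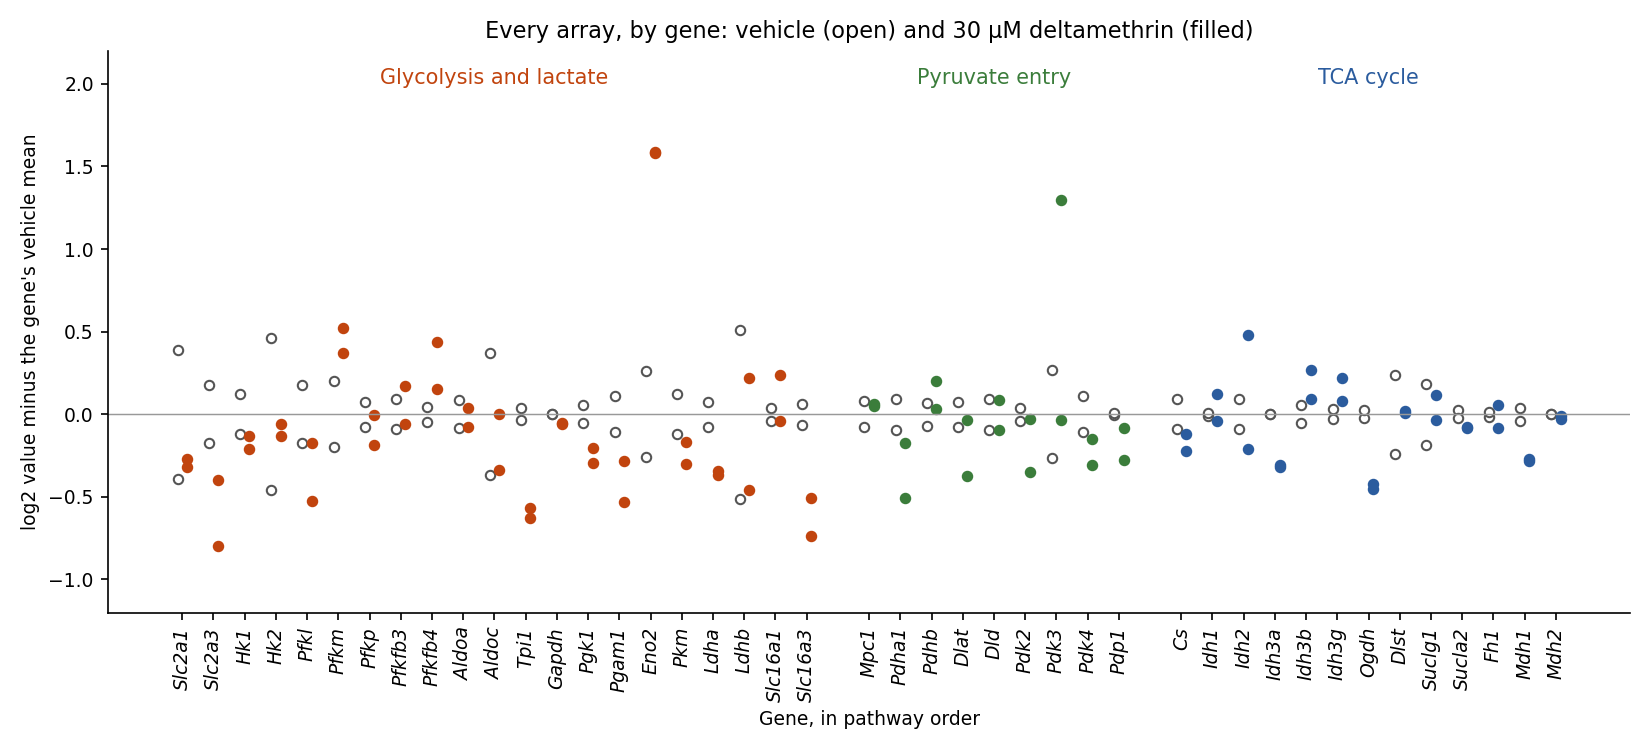
Log2 value of each measured gene on each array, minus that gene's vehicle mean (vertical axis), in pathway order along the horizontal axis; open circles are the 2 vehicle arrays and filled circles the 2 deltamethrin arrays. Both deltamethrin values of Eno2 stand near 1.59, Slc16a3, Tpi1 and Slc2a3 lie lowest in glycolysis, and most TCA cycle points lie near 0.

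Among the segments, glycolysis had a median log2 fold change of -0.17 over 21 genes, pyruvate entry one of -0.18 over 9 genes and the TCA cycle one of -0.02 over 13 genes, beside -0.02 over all probe sets. Estimates were lower for 16 of 21, 6 of 9 and 7 of 13 genes. The groups were separate with lower deltamethrin values for 9 of 21, 3 of 9 and 6 of 13, and with higher values for 3, 0 and 2. The TCA cycle was thus not below the other segments in its share of genes with separate, lower values. Among probe sets above the median level, 26.5% were separate with lower values and 26.4% with higher values. As a median over the glycolysis genes, the deviation from the vehicle mean was -0.09 and 0.09 on the vehicle arrays and -0.19 and -0.17 on the deltamethrin arrays. For pyruvate entry it was -0.01 and 0.01 on the vehicle arrays, and -0.28 and -0.04 on the deltamethrin arrays. For the TCA cycle it was -0.02 and 0.02, and then -0.04 and -0.03. The glycolysis arrays of the groups were thus separate by less than the gap within the vehicle pair, and the pyruvate entry value rested on deltamethrin replicate 1. Without vehicle replicate 1 the glycolysis median was -0.29 and without vehicle replicate 2 it was -0.05. Without deltamethrin replicate 1 the pyruvate entry median was -0.04 and without deltamethrin replicate 2 it was -0.28. The TCA cycle median was -0.06 without vehicle replicate 1, 0 without vehicle replicate 2, -0.03 without deltamethrin replicate 1 and -0.04 without deltamethrin replicate 2. No test of the difference between segments was made, since their members were chosen by function and share the same 4 arrays.

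**Figure D2:**
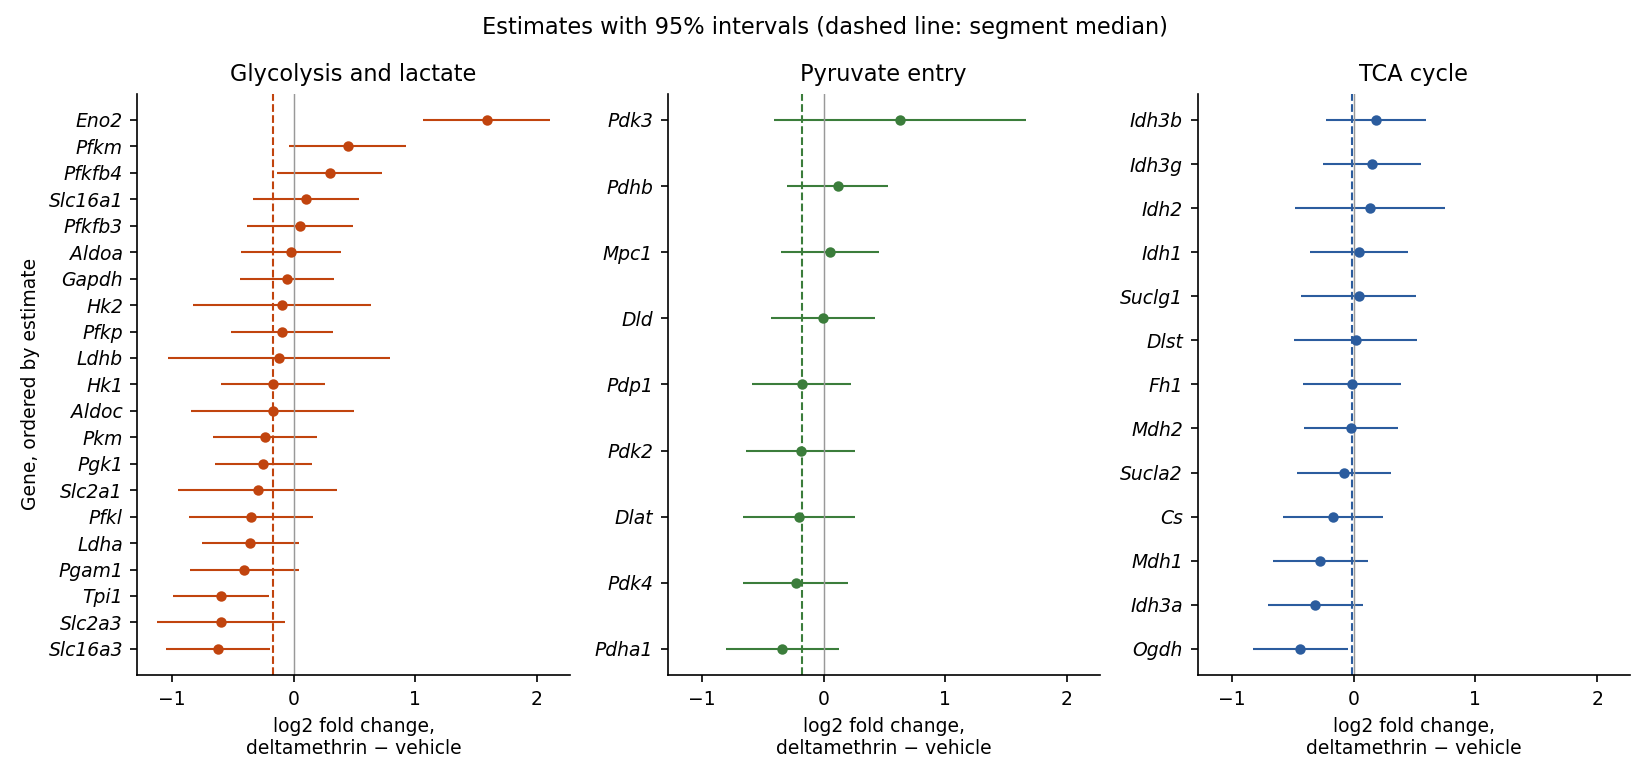
Log2 fold change of deltamethrin over vehicle (horizontal axis) for every measured gene, with its 95% interval from limma, in a panel for each segment; the dashed line is the segment's median. The interval of Eno2 (1.06 to 2.11) is the only one that lies wholly above 0, those of Slc16a3, Tpi1, Slc2a3 and Ogdh lie wholly below it, and the TCA cycle median sits at -0.02.

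Eno2 catalyses the step from phosphoglycerate to phosphoenolpyruvate and is the enolase isoform of neurons and neuroendocrine cells. Its log2 value was 8.13 and 8.65 on the vehicle arrays and 9.98 and 9.97 on the deltamethrin arrays. The deltamethrin arrays agree closely with each other, and both lie well above the vehicle arrays, which differ by more among themselves. The means were 8.39 ± 0.37 and 9.98 ± 0.01 (SD, n = 2). The estimated log2 change was 1.59 ± 0.22 (SE), with an adjusted p = 0.0532 in limma. The adjusted p was 0.00339 with a variance trend. It was 0.0210 without dim probe sets, 0.0447 after quantile and 0.0391 after cyclic loess normalization, settings in which 2.34%, 0.414% and 0.522% of probe sets were called and Eno2 alone of the members. Leaving out vehicle replicate 1 gave 1.33 and leaving out vehicle replicate 2 gave 1.85, without a call in either (adjusted p = 0.364 to 0.678 over the 4 arrays left out in turn).

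The promoters of the 3 members called with the variance trend are shown because they lie at the extremes of the pathway and because HIF, the classical activator of glycolytic genes, recognises a short core, ACGTG. Each is the stretch of 250 bases before the gene's start in RefSeq (GRCm38.p6), written 5′ to 3′ along the gene's own strand, with capitals marking ACGTG on either strand. Slc16a3 lies at chr11:120948817-120949066 on the plus strand, Tpi1 at chr6:124814159-124814408 on the minus strand and Eno2 at chr6:124769674-124769923 on the minus strand.
Slc16a3: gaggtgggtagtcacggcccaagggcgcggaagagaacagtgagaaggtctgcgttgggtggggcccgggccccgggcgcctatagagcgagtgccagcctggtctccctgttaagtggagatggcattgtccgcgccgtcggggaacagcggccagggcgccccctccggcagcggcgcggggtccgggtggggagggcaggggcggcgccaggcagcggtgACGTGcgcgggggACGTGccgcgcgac
Tpi1: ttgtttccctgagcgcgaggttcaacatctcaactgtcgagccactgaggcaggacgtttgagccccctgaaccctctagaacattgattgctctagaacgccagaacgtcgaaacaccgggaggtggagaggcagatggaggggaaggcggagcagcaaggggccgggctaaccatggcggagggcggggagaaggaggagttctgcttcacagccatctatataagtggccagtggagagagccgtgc
Eno2: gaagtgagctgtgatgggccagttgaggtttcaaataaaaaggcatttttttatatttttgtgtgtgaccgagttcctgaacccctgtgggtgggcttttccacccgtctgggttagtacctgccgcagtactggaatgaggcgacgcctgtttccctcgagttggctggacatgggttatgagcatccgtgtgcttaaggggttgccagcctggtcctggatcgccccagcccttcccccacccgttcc

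The Slc16a3 window held ACGTG at 2 places, from 27 to 23 and from 14 to 10 bases before the start, whereas those of Tpi1 and Eno2 held none. The alternative core GCGTG was in none of the 3 windows on either strand, nor was the E-box CACGTG, which contains ACGTG and is read by MYC family proteins. Promoter entries were matched for 44 of the 47 genes, 66 entries in all, since some genes have several starts. ACGTG was in 27 of the 66 (40.9%) and in 16.6% of all 32851 entries, and GCGTG in 54.5% and 28.2%. The members' windows also had more G and C, with a median of 61.0% against 52.4%. ACGTG was in 43.2% of the glycolysis entries, 27.3% of those of pyruvate entry and 44.4% of those of the TCA cycle, and CACGTG was in 13.6% of the members' entries and 6.02% of all. A match describes letters, not binding. Tpi1 and Eno2 both lie on chromosome 6, with starts 44.485 kb apart on the same strand, and their estimates had opposite signs. Which genes lie between them was not examined.

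Among the members, glucose uptake was represented by the transcripts of 2 transporter genes. Slc2a3, the high-affinity GLUT3 of neurons, was 14.16 and 14.51 with vehicle and 13.54 and 13.94 with deltamethrin. All deltamethrin values lay below the vehicle values, though the nearest arrays of the groups were closer together than the replicates of either group. The log2 fold change was -0.60 ± 0.22 (adjusted p = 0.319), and -0.40 without deltamethrin replicate 1 or -0.80 without deltamethrin replicate 2. Slc2a1, the ubiquitous GLUT1, was 12.07 and 12.85 with vehicle and 12.14 and 12.19 with deltamethrin, so its groups overlapped (-0.30 ± 0.27). Without vehicle replicate 2 its estimate was 0.10.

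Of the enzymes that commit and split the sugar, Tpi1 stood lowest. It interconverts the triose phosphates, and its log2 value was 14.92 and 14.85 with vehicle and 14.32 and 14.26 with deltamethrin. The gap between groups exceeded the spread within either group several times over, with means of 14.89 ± 0.05 and 14.29 ± 0.04 (SD, n = 2). The log2 fold change was -0.60 ± 0.16 (adjusted p = 0.209, and 0.0134 with a variance trend), and it ran from -0.63 to -0.56 over the arrays left out in turn. The hexokinases, which trap glucose as its phosphate, did not pass. Hk1 had an estimate of -0.17 ± 0.18. Hk2, the inducible form, was 10.31 and 11.23 with vehicle and 10.64 and 10.71 with deltamethrin (-0.10 ± 0.30). Its vehicle arrays lay on both sides of the deltamethrin arrays, and the estimate was -0.56 without vehicle replicate 1 and 0.37 without vehicle replicate 2. The aldolase Aldoa was at -0.02 ± 0.17, and Aldoc, the brain aldolase, at -0.17 ± 0.28.

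The phosphofructokinase subunits, which set the committed step, had estimates of different sign, and none passed the threshold. Pfkm, the muscle subunit, was 10.79 and 11.19 with vehicle and 11.36 and 11.51 with deltamethrin, an estimate of 0.45 ± 0.20 (adjusted p = 0.398). Its groups did not overlap, and the estimate was 0.25 without vehicle replicate 1. Pfkl, the liver subunit, was 11.96 and 12.31 with vehicle and 11.61 and 11.96 with deltamethrin (-0.35 ± 0.21, adjusted p = 0.530). Pfkp, the platelet subunit, was at -0.10 ± 0.17, and the groups overlapped for both Pfkl and Pfkp. The bifunctional enzymes that make or remove the activator of phosphofructokinase had estimates of 0.06 ± 0.18 for Pfkfb3 and 0.30 ± 0.18 for Pfkfb4, the latter from low levels of 6.63 to 7.11.

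In the later steps of glycolysis, where ATP is gained, 4 of 5 measured genes had both deltamethrin arrays below both vehicle arrays, as did 26.5% of probe sets above the median level, and Eno2 had both above. Pgam1, the phosphoglycerate mutase, was 14.59 and 14.81 with vehicle and 14.42 and 14.17 with deltamethrin (-0.41 ± 0.19, adjusted p = 0.406). Pgk1, the phosphoglycerate kinase, was at -0.25 ± 0.17, and the pyruvate kinase gene Pkm, whose splice forms its probe set does not separate, at -0.24 ± 0.18. Gapdh, often used as a reference gene, was 17.51 on both vehicle arrays and 17.46 and 17.45 on the deltamethrin arrays. That estimate of -0.06 ± 0.16 separated the groups only because the replicates were almost identical, and it was 0.02 after cyclic loess normalization. Gapdh also lay near the top of the scale, 1.14 below the lowest array maximum of 18.65. Several of these genes have many processed pseudogenes, and which copies the probes match was not examined.

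Among the genes of lactate handling, Slc16a3, the transporter MCT4 that exports lactate from glycolytic cells, was 15.17 and 15.30 with vehicle and 14.50 and 14.73 with deltamethrin. Both deltamethrin arrays lay below both vehicle arrays, by more than either group's own spread. Its log2 fold change of -0.62 ± 0.18 (adjusted p = 0.223, and 0.0186 with a variance trend) was the lowest of the members. Slc16a1, the transporter MCT1, was at 0.10 ± 0.18. Ldha, the lactate dehydrogenase subunit that favours lactate formation, was 16.96 and 16.81 with vehicle and 16.54 and 16.52 with deltamethrin (-0.36 ± 0.17, adjusted p = 0.413). Ldhb, the subunit of oxidative tissues, was dim, with values from 4.09 to 5.11 that overlapped between groups.

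Pyruvate entry held no member past the threshold under any setting run. The carrier gene Mpc1 was at 0.06 ± 0.17. In the dehydrogenase complex, Pdha1, the catalytic alpha subunit, was 13.06 and 13.25 with vehicle and 12.65 and 12.98 with deltamethrin. Its estimate of -0.34 ± 0.19 (adjusted p = 0.502) was the lowest of the segment, and it was -0.18 without deltamethrin replicate 1. Its partner subunit Pdhb was at 0.12 ± 0.17, the acetyltransferase Dlat at -0.21 ± 0.19 and the shared dehydrogenase Dld at -0.01 ± 0.18.

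The kinases that inactivate the complex were dim, with values from 2.38 to 5.05 for Pdk2, Pdk3 and Pdk4. Pdk3 had the highest estimate of the segment, 0.63 ± 0.43, from values of 2.91 and 2.38 with vehicle and 3.94 and 2.61 with deltamethrin. That value rested on a single array, since it was -0.04 without deltamethrin replicate 1. Pdk4, the kinase induced by fasting, was at -0.23 ± 0.18, Pdk2 at -0.19 ± 0.19, and the activating phosphatase Pdp1 at -0.18 ± 0.17. Pdk1, the hypoxia-inducible kinase of the same family and not counted among the members, was 6.48 and 6.51 with vehicle and 5.10 and 4.95 with deltamethrin. It fell by 1.47 ± 0.17 (adjusted p = 0.0352 in limma), and its deltamethrin mean of 5.03 lay below the median level. With the replicate number as a block its adjusted p was 0.205, and with any 1 of the 4 arrays left out 0 probe sets were called.

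In the TCA cycle the estimates ran from -0.44 to 0.18, and every 95% interval lay between -0.83 and 0.75, so within a 2-fold change in either direction for 13 of 13 genes. For glycolysis this held for 17 of 21 genes and for pyruvate entry for 8 of 9. It also held for 18757 of all 22206 probe sets and for 9324 of the 11103 above the median level. Ogdh, the catalytic subunit of oxoglutarate dehydrogenase, was 14.22 and 14.27 with vehicle and 13.82 and 13.79 with deltamethrin. The replicates agree to within 0.05, and the groups are far apart on that scale. Its log2 fold change was -0.44 ± 0.16 (adjusted p = 0.319, and 0.0534 with a variance trend). Dlst, the succinyltransferase of the same complex, was at 0.02 ± 0.21.

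NAD-dependent isocitrate dehydrogenase is built from the subunits of the Idh3 genes. Idh3a, the catalytic subunit, was 15.28 on both vehicle arrays and 14.96 and 14.97 with deltamethrin, an estimate of -0.32 ± 0.16 (adjusted p = 0.456). Idh3b was 13.58 and 13.69 with vehicle and 13.90 and 13.73 with deltamethrin, an estimate of 0.18 ± 0.17 and the highest of the segment. Idh3g was 14.99 and 14.93 with vehicle and 15.18 and 15.04 with deltamethrin (0.15 ± 0.17). In all of these the groups did not overlap, none passed the test, and the difference between the subunits was not tested. Of probe sets above the median level, the groups were separate with lower values for 26.5% and with higher values for 26.4%. Of the NADP-dependent forms, the cytosolic Idh1 was at 0.04 ± 0.17. The mitochondrial Idh2 was at 0.14 ± 0.26, with 0.48 without deltamethrin replicate 1 and -0.21 without deltamethrin replicate 2.

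Around the rest of the cycle, the citrate synthase gene Cs had an estimate of -0.17 ± 0.17. The succinyl-CoA ligase subunits Suclg1 and Sucla2 were at 0.04 ± 0.20 and -0.08 ± 0.16, the latter from low values of 5.64 to 5.75, and the fumarase Fh1 was at -0.02 ± 0.17. Mdh1, the cytosolic malate dehydrogenase of the malate-aspartate shuttle, was 14.70 and 14.62 with vehicle and 14.38 and 14.39 with deltamethrin (-0.28 ± 0.16, adjusted p = 0.521). The mitochondrial Mdh2 was at -0.02 ± 0.16, with values from 15.13 to 15.16 on all 4 arrays.

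**Figure D3:**
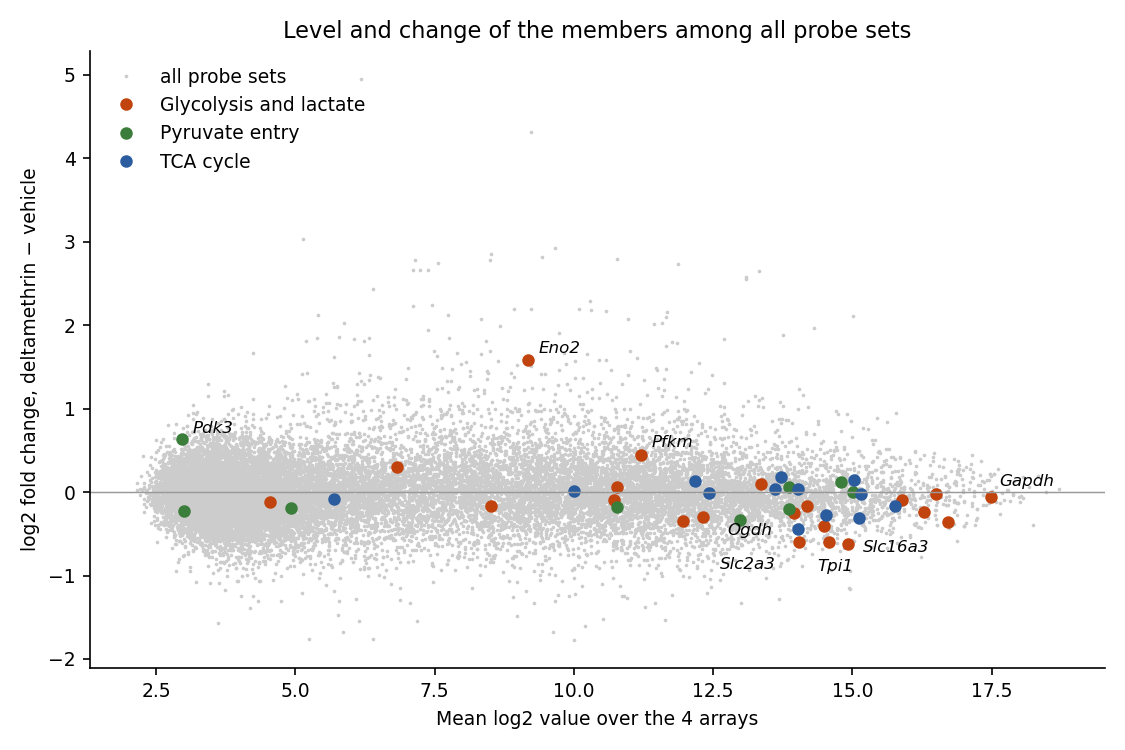
Log2 fold change of deltamethrin over vehicle (vertical axis) against the mean log2 value over the 4 arrays (horizontal axis) for all 22206 probe sets (grey) and the members, coloured by segment. Most members lie on the bright side of the array, Eno2 stands apart at 1.59, and Pdk3 lies among the dimmest probe sets.

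The balance between isoforms was compared within arrays, as the difference of their log2 values. Of 15 pairs listed, 11 were measured, and in 4 the groups did not overlap (2 higher and 2 lower). Over single probe sets the groups were separate with lower values for 23.5% and with higher values for 20.3%, so 4 of 11 is not above that background. With 2 arrays against 2 the exact permutation test, two-sided, cannot give a p below 0.33, which these 4 pairs reached (0.917 after adjustment over the 11 pairs). Slc16a3 minus Slc16a1 was 1.90 and 1.95 with vehicle and 1.23 and 1.18 with deltamethrin. The difference between the groups' means was -0.72 ± 0.04 (SE), with replicates that differ by 0.05. The SEs of the pairs come from these arrays alone, whereas limma draws on the spread of all probe sets. They are therefore not comparable with the SEs of single genes. Mdh2 minus Mdh1 went from 0.46 and 0.54 to 0.77 and 0.74, a difference of 0.26 ± 0.04. For Pfkm minus Pfkp it was 0.54 ± 0.13 and for Pfkl minus Pfkp -0.26 ± 0.13. The pairs of Slc2a1 with Slc2a3, Hk2 with Hk1, Aldoc with Aldoa, Ldhb with Ldha, Pdk3 with Pdk2, Pdk4 with Pdk2 and Idh2 with Idh1 overlapped, with differences from -0.15 to 0.82. The 95% intervals of Slc16a1 and Mdh2 alone ran from -0.33 to 0.53 and from -0.41 to 0.37.

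**Figure D4:**
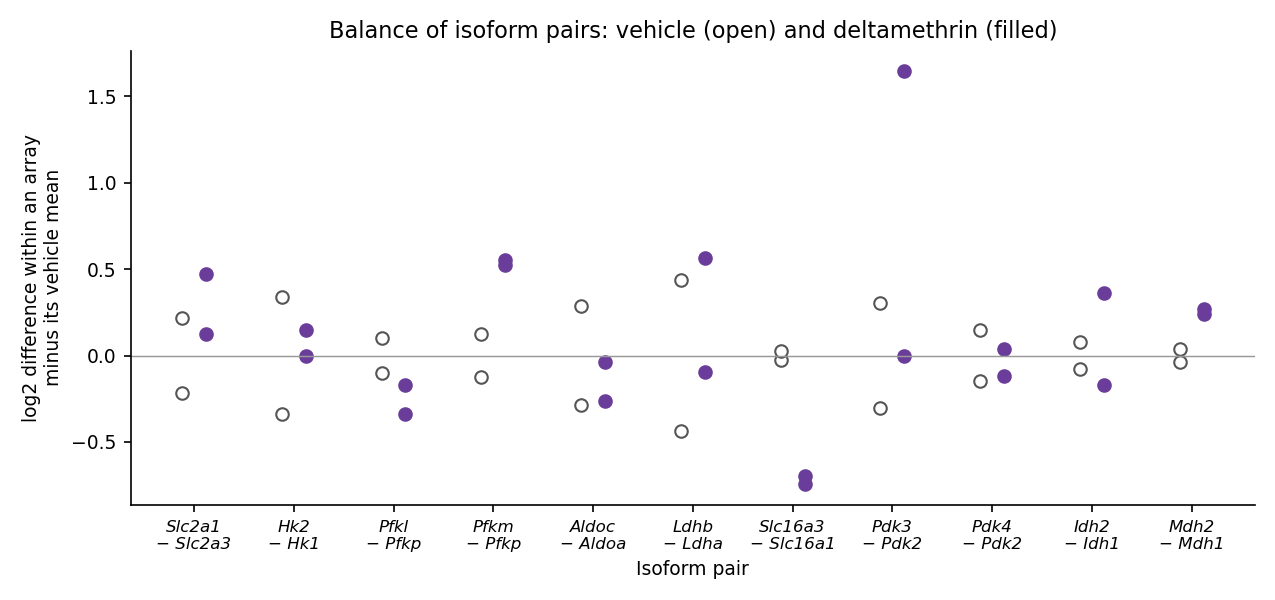
Difference of the log2 values of 2 isoforms within each array, minus its vehicle mean (vertical axis), for the 11 measured pairs (horizontal axis); open circles are vehicle arrays and filled circles deltamethrin arrays. Slc16a3 minus Slc16a1 lies 0.72 below its vehicle mean with tight replicates, Pfkm minus Pfkp and Mdh2 minus Mdh1 lie above theirs, and the high point of Pdk3 minus Pdk2 is 1 array.

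Other genes of the same pathways were mostly without a call as well. Of 29 further glycolysis genes measured, 0 rose and 0 fell, and the median estimate was -0.01. Over all probe sets 0.432% were called in limma, so lists of this size would hold few calls or none at that share. Of the 29, 18 were at or below the median level, with values from 2.13 to 5.40, as was 1 of the 21 glycolysis members. Those dim values cannot be said to be above background. The lowest p were those of the hexose transporter Slc2a6, at 1.07 ± 0.29 (adjusted p = 0.212), and of the enolase-like gene Eno4, at -0.60 ± 0.21 (adjusted p = 0.290). Of 11 further genes of pyruvate entry, 0 rose and 1 fell, which was Pdk1. Next by p was the phosphatase gene Pdp2, at 0.35 ± 0.18 (adjusted p = 0.449). Of 19 further TCA cycle and shuttle genes, 0 rose and 0 fell, with a median of -0.14. With a variance trend 1 of the 19 was higher and 2 were lower, where 3.63% of all probe sets were called. Of the 19, 17 lay above the median level, where 486 of 11103 probe sets were called higher and 298 lower. Got1, the cytosolic aspartate transaminase, was 13.40 and 13.65 with vehicle and 14.55 and 14.83 with deltamethrin (1.17 ± 0.19, adjusted p = 0.0864, and 0.00169 with the trend). Slc25a10, the mitochondrial dicarboxylate carrier, was 10.56 and 10.70 with vehicle and 9.65 and 9.17 with deltamethrin (-1.22 ± 0.21, adjusted p = 0.0959, and 0.00859 with the trend). Sdhd, a membrane anchor of succinate dehydrogenase, was at -0.73 ± 0.22 (adjusted p = 0.244, and 0.0472 with the trend). Got1 and Mdh1 work side by side in the malate-aspartate shuttle, and their estimates had opposite signs.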

How the data were processed

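Per the labels' protocols, RNA integrity numbers exceeded 9 and each array took 500 ng of total RNA. The authors deposited log2 signals, 1 per probe set and array. The submitters' processing notes name RMA (background correction, alignment of the arrays and summary of probes) and Transcriptome Analysis Console, with no version. The scale was taken as log2 from the range of the deposited values, 1.92 to 18.75. RMA aligns the arrays' distributions, so values are relative to all other transcripts. Symbols came from the platform annotation: 19572 probe sets had 1 symbol, 0 had several and 2634 were unnamed here; no member had more than 1 probe set. Deltamethrin minus vehicle was fitted over all probe sets with limma 3.58.1 (R 4.3.3; lmFit, eBayes, no trend, no block), two-sided, with Benjamini-Hochberg adjustment and a threshold of 0.05. It had 2 residual and 4.43 prior degrees of freedom, and the number of arrays limits the precision (median SE 0.19). "Rose" and "fell" mark calls. Intervals are 95%. The fit was tested on simulated data. Every member is given with its estimate. Values on every array are given for members called or called with a trend, with an unadjusted p below 0.05 or of extreme estimate in their segment, and for some others chosen after their values were seen. From the lists of other pathway genes and control factors, called genes, genes called with a trend and the 2 of smallest p were named. From the cell marker lists, only genes called with a trend were named, and Th, the only neuroblastoma marker with a higher estimate. The members and lists were chosen with earlier results of these data known. Settings also tried were a block on the replicate number, other variance models (trend, robust, no moderation), a filter at the 40th percentile of level, quantile, cyclic loess and median scaling, and each array left out.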

Additional observations from a re-analysis of the deposited data

How the results depend on the processing

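The count of members called was 0 in limma (5 at an unadjusted p below 0.05). It became 3 with a mean-variance trend (1 higher, 2 lower), and 1, Eno2, higher, without dim probe sets, after quantile normalization and after cyclic loess normalization. It was 0 under every other setting run, including all 4 fits without 1 array, in which the lone array of a group is assumed to vary like the other group (2 to 5 members at an unadjusted p below 0.05). With the replicate number as a block, 0 members and 0 of all probe sets were called. The correlation of the replicate differences between groups was 0.127 over all probe sets and 0.532 over the 43 members. With 2 pairs and no label on what the numbers share, the numbers are not taken to pair the arrays. The estimates of the 5 members at an unadjusted p below 0.05 kept their sign in all 12 alternatives, as did 26 of 43 members, while 17, all without a call, changed sign in at least 1. The block, the other variance models and the level filter leave an estimate unchanged. Leaving out 1 array cannot change the sign where the groups do not overlap, as in these 5 members. For them only the scaling settings could have changed it. The glycolysis median ran from -0.29 to -0.05 over the arrays left out, that of pyruvate entry from -0.28 to -0.035 and that of the TCA cycle from -0.055 to 0, and the TCA cycle median was 0.003 after cyclic loess and 0.002 after quantile normalization. The number of separate isoform pairs ran from 5 to 9 with an array left out, where 1 array against 2 separates more easily. No scan date was used here, so a batch cannot be told apart from the group.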

Other observations

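Factors that set the expression of these pathways showed 0 rises and 0 falls in limma among 24 measured genes, with a median log2 fold change of -0.08. Over all probe sets 0.432% were called. Txnip, the glucose-induced inhibitor of glucose uptake and thioredoxin, was the lowest, at 10.11 and 10.56 with vehicle and 8.87 and 9.33 with deltamethrin. Its estimate was -1.24 ± 0.24 (adjusted p = 0.126, and 0.0150 with a mean-variance trend), with both deltamethrin arrays below both vehicle arrays. Egln3, an oxygen-sensing prolyl hydroxylase that HIF itself induces, was dim, at 4.38 and 4.75 with vehicle and 3.32 and 4.11 with deltamethrin (-0.85 ± 0.29, adjusted p = 0.291). Among others chosen after their values were seen, Hif1a was at -0.04 ± 0.18, Myc at 0.03 ± 0.17 and Mycn at -0.12 ± 0.21. The respiratory gene activator Nrf1 was at -0.43 ± 0.19 and the MAX partner Mxi1 at -0.39 ± 0.17, with groups that did not overlap in either. Groups were separate with lower values for 26.5% of probe sets above the median level. These are transcript values and say nothing of protein stability.

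In the pentose phosphate pathway, which branches from glycolysis to make NADPH, 0 of 6 measured genes rose or fell in limma. The share called over all probe sets was 0.432%. The median estimate was 0.10, and the lowest p was that of the lactonase Pgls, at 0.42 ± 0.19 (adjusted p = 0.410). Next was H6pd, the hexose phosphate dehydrogenase of the endoplasmic reticulum, at -0.21 ± 0.20.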
